A study of Homo sapiens with 2 samples.

Results

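Expression of keratin, claudin, desmosomal, cadherin and protocadherin genes was compared between A549 cells kept static and A549 cells stretched. These families include proteins of filaments and of cell contacts. A549 is an established human lung adenocarcinoma line. The genes were chosen by symbol: keratins, claudins, protocadherins, numbered cadherins, desmogleins and desmocollins, plakophilins, catenins and zonula occludens scaffolds, together with DSP, JUP, OCLN, EPCAM, CGN, PPL and EVPL. This gave 136 of 14884 named genes, of which 122 are protein-coding, 10 are pseudogenes and 4 are antisense or other long noncoding RNAs. RNA came from 1 static and 1 stretched culture sample, each taken at 4 h and each measured on 1 Affymetrix array. The stretch device, its amplitude and frequency, and the number of dishes behind each RNA are not given in the sources used here. A549 is misspelt in the title of the stretched sample and right in its source name. Neither group carries a named allele or agent.

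Keratins are intermediate filament proteins that pair as a type I with a type II chain and end in desmosomes, where plakins and armadillo proteins tie them to desmosomal cadherins. Claudins and occludin seal the tight junction and are bound inside the cell by zonula occludens scaffolds. Protocadherins form the largest cadherin branch and are best known from neurons, where each clustered isoform has a promoter of its own.

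Values are log2 signals of a probe set, and a difference is stretch minus static on that scale, so that 1 is 2-fold. With 1 array per condition there is no replicate, no test and no p-value, and the number of arrays limits the precision. Levels of different probe sets cannot be compared with each other. In RNA from a whole culture, a change in RNA per cell and a change in the share of cells that express a gene cannot be told apart. A bound for background came from 17 genes that other tissues express: the 95th percentile of their signals was 4.31. Their differences had a robust SD of 0.34, 3 of the 17 passed 1.5-fold and 1, SYT1 at -1.16, passed 2-fold. Of the 17 measured lung epithelium and A549 markers, 6 had a signal above the bound on at least 1 array, namely KRT7, KRT8, KRT18, EPCAM, FOXA1 and FOXA2. The other 11, surfactant genes and NKX2-1 among them, were in the background range in both conditions. All 3 measured fibroblast and all 6 measured endothelial markers were in that range as well, and the summed linear signal of the endothelial markers was 39.9 static and 33.3 stretched. Of 4 measured leukocyte markers, CD14 (5.13 static, 5.53 stretched) and CD68 (7.51 and 8.58) lay above it, and the summed signal went from 236.5 to 444.9. The other leukocyte markers, LYZ and NKG7, were in the background range on both arrays and lower on the stretched one. The rise of the sum thus came from CD14 and CD68. Both samples are listed as A549 cells only, so the sum is not read here as a content of leukocytes. Whether any other cells were present was not tested.

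Most of the 136 genes gave little signal. On both arrays 112 of them (82.4%) lay at or under the bound, against 56.5% of all named genes, and 81 of them fell in the lowest 3 of 10 level bins. Over all 136 members, stretch gave 14 (10.3%) that were 1.5-fold higher or more and 15 that were 1.5-fold lower or more. Over all named genes these shares were 20.7% and 8.02%. At 2-fold, 5 members (3.68%) were higher and 2 (1.47%) lower, beside 9.07% and 1.93% of all named genes. The 5 higher were KRT80, KRT7, CLDN1, PCDHB2 and PCDHB5, and the 2 lower were PCDHB9 and DSC2. The median difference was -0.075 over the members and 0.06 over all named genes.

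Signal level bore on these counts, since dim probe sets leaned lower and bright ones higher in the whole table. The median difference of all named genes was -0.12 in the lowest of the 10 level bins and 0.47 in bin 8. Counting only genes whose mean signal exceeded the bound left 22 members. Of these, 9 (40.9%) were higher by 1.5-fold or more, beside 37.0% of the 5869 named genes above the bound. Another 3 (13.6%), EPCAM, DSC2 and the pseudogene KRT16P2, were lower by as much, beside 4.67%. At 2-fold, 3 members were higher (16.9% of the genes) and 1 lower (1.81%). Their median difference of 0.39 equalled that of those genes (0.39). The share of members that were higher was thus near the share of all genes. A further count took genes with a signal of 2.52 or more on at least 1 array, which a gene can pass through its higher array alone, and it held 66 members. At 1.5-fold 14 of them were higher and 11 lower (27.7% and 8.90% of all genes past that filter), and at 2-fold 5 and 2 (12.3% and 2.50%). Of all 2-fold calls past it 83.1% were higher ones, and this share became 61.4% after quantile normalization, 67.3% after a loess on level and 44.2% after centring on reference genes. Centring on 6 reference genes lowered every difference by 0.34, their median, so a member between 0 and 0.34 takes the opposite sign there. The 6 ranged from -0.22 (B2M) to 1.72 (PPIA), so the size of this shift is uncertain.

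**Figure D1:**
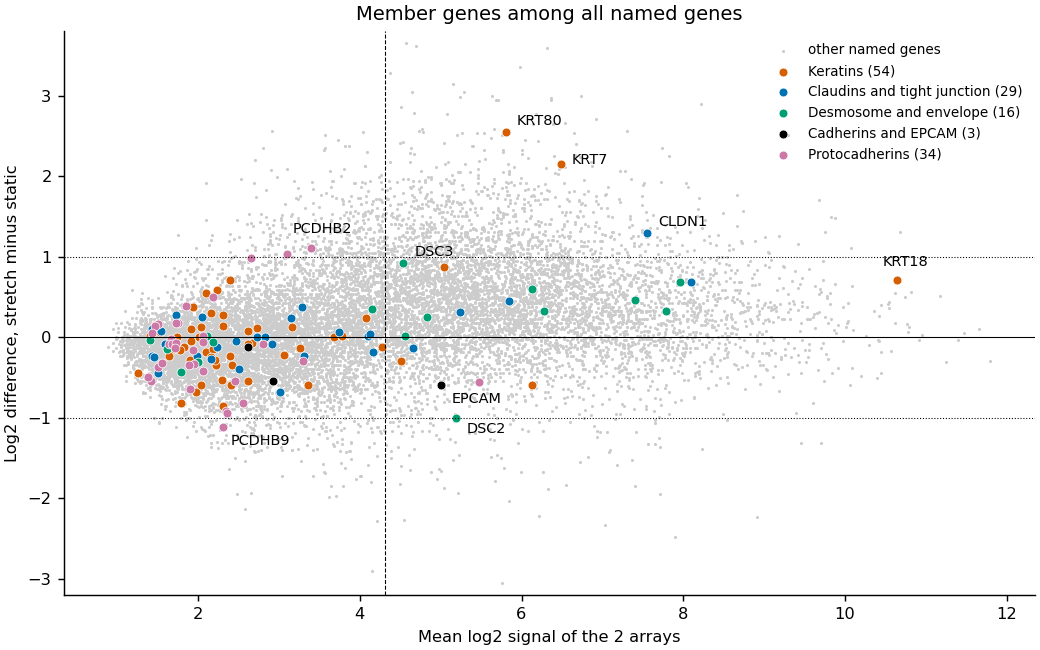
Log2 difference (stretch minus static) against the mean log2 signal of both arrays for all named genes in grey and the 136 members in colour by family, with 1 array per condition. Dotted lines mark 2-fold, the dashed line marks the background bound of 4.31, and 5 grey genes lie outside the plotted range. KRT80 (2.55), KRT7 (2.15) and CLDN1 (1.29) stand highest among the bright members and DSC2 (-1.01) lowest.

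Of 7 keratins grouped here by symbol as simple keratins, KRT80 and KRT7 had the largest differences of all members. The group name stands for single-layered epithelium, and whether KRT80 is limited to it was not examined. KRT80, a type II keratin, read 4.53 static and 7.08 stretched, a difference of 2.55 or 5.86-fold. Of all 14884 named genes it ranked 33rd from the highest. KRT7, the type II keratin of glandular and lung epithelium, read 5.41 and 7.56, a difference of 2.15 or 4.44-fold, at rank 82. Both genes were thus clearly brighter on the stretched array, and both stayed past 2-fold under all 5 scalings, with lowest values of 2.19 and 1.78. Genes of their level bin had a median difference of 0.45 and an SD of 0.67.

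KRT8 and KRT18, the pair that forms the filaments of simple epithelium, differed by less. KRT8 read 4.60 and 5.47 (0.87, 1.83-fold), on a probe set annotated to a noncoding KRT8 transcript. KRT18 read 10.29 on the static array and 0.71 more on the stretched array (1.64-fold) by its brighter probe set, and 6.49 and 7.03 (0.54) by the dimmer. Both keratins were higher on the stretched array in each probe set, but neither held 1.5-fold under every scaling: KRT8 came to 0.47 after quantile normalization and KRT18 to 0.37 after centring on reference genes. The 10 named probe sets nearest in identifier to the brighter KRT18 probe set all belong to genes of chromosome 3, whereas KRT18 lies on chromosome 12 and has processed copies elsewhere. Which locus that probe set reads was not tested. KRT19, a type I keratin of simple epithelium, read 3.77 and 3.78, within the background range. Its difference of 0.01 turned negative under 3 of the scalings. KRT20 (-0.15) and KRT23 (0.14) were within that range too.

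By gene order on chromosome 12, the 4 keratins grouped as simple that had signal sit at the ends of the type II cluster. KRT80 and KRT7 are adjacent at its start among the named genes, and KRT8 and KRT18 are adjacent at its end. Of the 18 named keratins between them, all had both signals within the background range except KRT4, an esophageal keratin that read 4.66 and 4.36 (-0.30). Over the 21 named type II keratins the median difference was 0.00, and over the 26 type I keratins it was -0.14.

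Keratins of layered epithelium and of hair gave no difference of 2-fold. Of 18 stratified keratins 0 passed 1.5-fold upward and 1 downward, KRT1 of the upper epidermis (2.34 and 1.74). The basal keratins KRT5 (1.74 on both arrays) and KRT14 (2.29 and 2.04) were within the background range, as was KRT16 (3.33 and 3.20), which wounded epidermis expresses. KRT10 read 2.58 and 2.66, and KRT78 read 2.89 and 2.35. Among 22 keratins of hair and its sheath 1 passed 1.5-fold upward (KRT32) and 5 downward (KRT83, KRT26, KRT35, KRT37 and KRT39), around a median of -0.12, beside 20.7% and 8.02% of all named genes. Only KRT31, at 4.33 static and 4.21 stretched, touched the bound there. KRT85 read 3.68 on both arrays, KRT37 read 3.66 and 3.07, and KRT74 read 2.67 and 2.78, the last turning to -0.23 after centring on reference genes.

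**Figure D2:**
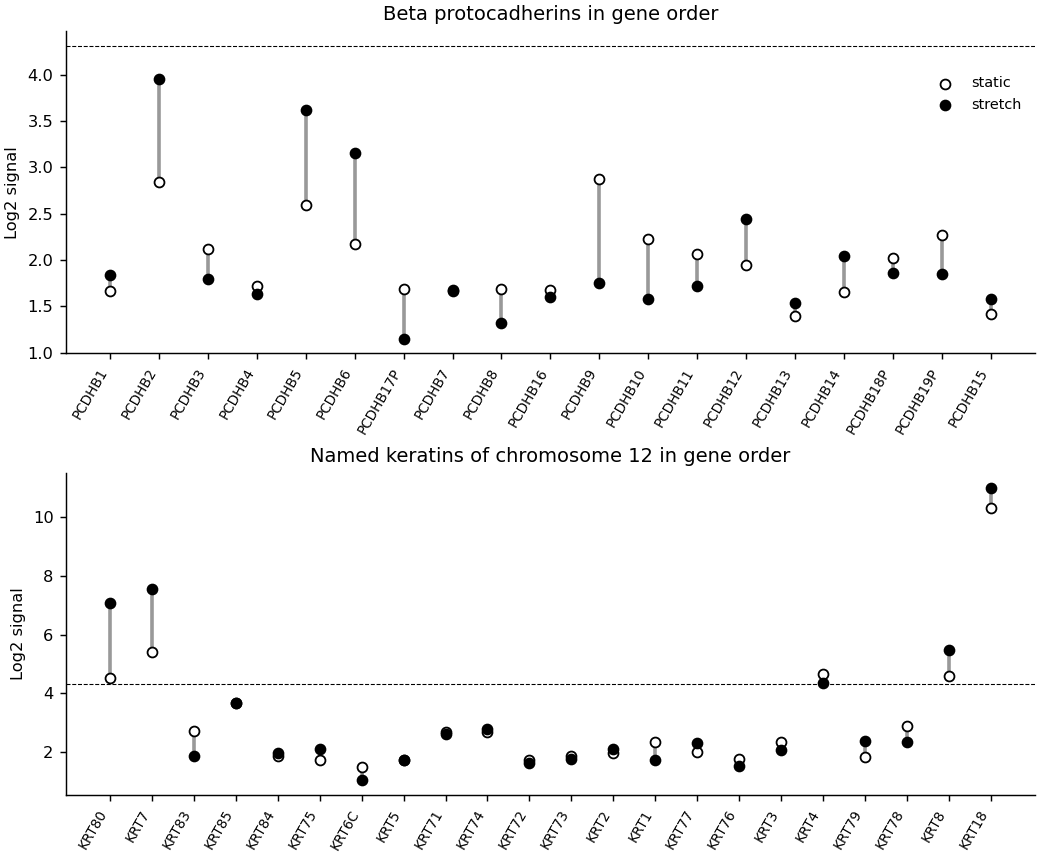
Log2 signals on the static (open) and stretched (filled) array for the beta protocadherins (upper panel) and the named keratins of chromosome 12 (lower panel), placed in gene order without distances. The dashed line marks the background bound of 4.31. All beta protocadherins lie under it, and the keratins above it on both arrays are KRT80 and KRT7 at the start, KRT4 within the order, and KRT8 and KRT18 at the end.

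At the tight junction, CLDN1, a barrier-forming claudin, read 6.91 static and 8.20 stretched. The difference was 1.29 or 2.45-fold, and it lay between 0.95 and 1.39 over the scalings. It was the only one of 24 protein-coding claudins past 1.5-fold in that direction, and 1, CLDN7, passed it downward. Over all named genes these shares were 20.7% and 8.02%. Of the 25 claudin symbols, CLDN10-AS1 included, 22 were in the background range on both arrays. CLDN3 (5.08 and 5.39, 0.31) and CLDN2, a pore-forming claudin (4.73 and 4.59, -0.14), were the other claudins with a mean above the bound, and CLDN3 turned negative under 3 scalings, to -0.11 after quantile normalization. CLDN7 read 3.35 and 2.67 (-0.68), past 1.5-fold downward but in the background range both times. CLDN4 (2.29 and 2.02), CLDN18 of lung and stomach (2.29 and 2.17) and the endothelial CLDN5 (3.10 and 3.48) lay within it too, as did CLDN23 (4.26 and 4.07). Over all claudins and CLDN10-AS1 the median difference was -0.05.

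TJP1, the scaffold ZO-1, read 7.75 and 8.44 (0.69, 1.61-fold) and its value after centring on reference genes was 0.35. OCLN, occludin, read 5.62 and 6.07 (0.45), and 0.02 remained after quantile normalization. TJP3 (4.11 and 4.15) and the scaffold-linked cingulin gene CGN (2.70 and 2.30) stayed within the background range, with TJP3 turning negative under 3 scalings. Set beside all genes of their own level bin, OCLN equalled the median (0.45), CLDN3 lay under it (0.47) and TJP1 lay above it (0.29).

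Desmosomal cadherins divided. DSC2, the widely expressed desmocollin, read 5.69 static and 4.68 stretched, a difference of -1.01 or 2.01-fold. It ranked 270th from the lowest of all named genes, and the value lay between -1.40 and -0.91 over the scalings. DSC3, a desmocollin of layered epithelium and the next gene in order, read 4.08 and 5.00 (0.92), the static value within the background range, and 0.58 after centring on reference genes or quantile normalization. DSG2, the widely expressed desmoglein, read 7.62 and 7.95 (0.33), which became -0.01 after centring on reference genes. The remaining DSC1, DSG1, DSG3 and DSG4, cadherins of layered epithelium, lay between 1.39 and 2.15 on either array. The 2 neighbouring desmocollins thus differed in opposite directions.

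The plaque proteins that anchor keratin to these cadherins differed by about as much as all genes with signal. The 6 with a mean above the bound had a median difference of 0.395, beside 0.39 for all named genes above it. JUP, plakoglobin, read 7.62 and 8.31 (0.69), and PKP2, a plakophilin, read 5.83 and 6.43 (0.60). DSP, desmoplakin, which binds the filaments, read 7.17 and 7.63 (0.46), and PKP4 read 6.11 and 6.44 (0.33). PKP4 turned to -0.10 after quantile normalization, and the lowest values over the scalings were 0.35 for JUP, 0.17 for PKP2 and 0.12 for DSP. Among all 8 plaque and envelope genes the median difference was 0.34, and 2 passed 1.5-fold upward and 0 downward, beside 20.7% and 8.02% of all named genes and 37.0% and 4.67% of those above the bound. PPL (4.70 and 4.95) and EVPL (4.55 and 4.57), the plakins periplakin and envoplakin of the cornified envelope, differed by 0.25 and 0.02. After loess on level these values became -0.063 and -0.257. PKP3 (3.97 and 4.32) reached the bound only on the stretched array, and PKP1 (2.22 and 2.16) did not.

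**Figure D3:**
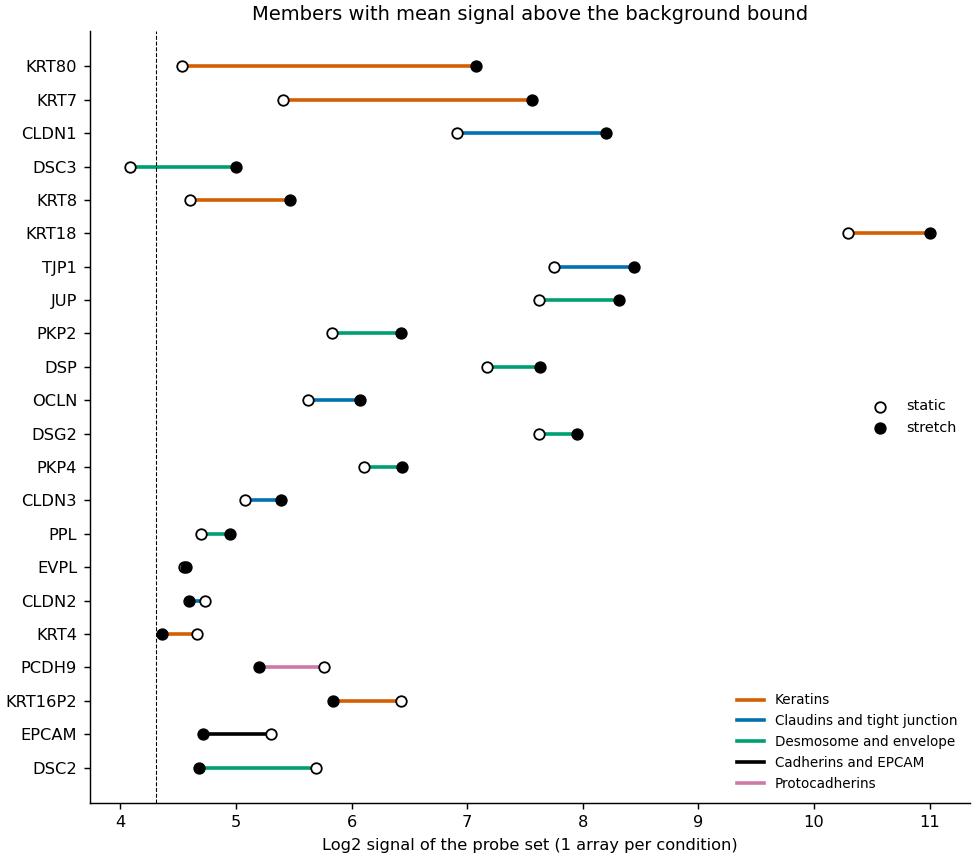
Log2 signal on the static (open) and stretched (filled) array for the 22 members whose mean signal exceeded the background bound (dashed, 4.31), ordered by difference, with line colour giving the family. There is 1 array per condition and no error bar. Of the 22, 16 were higher and 6 lower on the stretched array, DSC2 (5.69 to 4.68) the lowest difference.

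The 250 bases before the gene start of DSC2, which was lower, and of DSP, which was higher, are shown because each gene has an entry with the E-box CACCTG, a sequence that Snail-type repressors of epithelial genes bind. They come from the RefSeq promoter table of GRCh38.p14, which held 94 of the 136 members. Capitals mark the E-box on either strand.
DSC2 chr18:31102422-31102671 -: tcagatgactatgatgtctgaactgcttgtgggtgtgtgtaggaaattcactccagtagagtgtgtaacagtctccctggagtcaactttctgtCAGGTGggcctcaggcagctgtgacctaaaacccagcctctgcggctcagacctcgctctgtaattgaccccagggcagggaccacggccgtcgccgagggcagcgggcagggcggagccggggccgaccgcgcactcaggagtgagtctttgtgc
DSP chr6:7541421-7541670 +: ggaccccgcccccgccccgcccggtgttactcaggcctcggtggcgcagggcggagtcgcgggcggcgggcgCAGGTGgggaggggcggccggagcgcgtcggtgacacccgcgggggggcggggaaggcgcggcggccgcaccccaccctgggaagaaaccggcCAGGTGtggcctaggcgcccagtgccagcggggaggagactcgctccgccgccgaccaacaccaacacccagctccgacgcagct
The DSC2 sequence belongs to the farther of the annotated starts, the entry of the nearer start has no match, and the DSP sequence holds the E-box at 2 places. CACCTG was present on either strand of this window in 17.5% of the 35116 promoters listed and in 23 of the 121 promoters listed for members, a like share. Among the 14 members above the bound with an entry there were 6 with a match in at least 1 promoter, DSC2 being the lower one and DSG2, JUP, DSP, TJP1 and OCLN the others. Several of these genes have more than 1 entry, so this count by gene cannot be set against the share of single promoters. The match was thus found beside differences of both signs. AP-1 (TGACTCA, 4.20% of all promoters) and TEAD (GGAATG, 11.9%) matched in 0 of the 14, again a count by gene. KRT80, KRT7 and KRT18 had no entry and were not searched, so nothing is known here of these motifs in them.

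EPCAM, the epithelial cell adhesion molecule, read 5.30 static and 4.71 stretched. The difference was -0.59 (1.51-fold), and it lay between -0.98 and -0.49 over the scalings. Numbered cadherins were represented by CDH23 (3.20 and 2.65), of sensory hair cells, and CDH26 (2.68 and 2.56), both within the background range. The classical cadherins CDH1, CDH2 and CDH3 and the catenins CTNNA1, CTNNB1 and CTNND1 had no probe set named here and were not analysed. The adherens junction is therefore covered only in part.

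**Figure D4:**
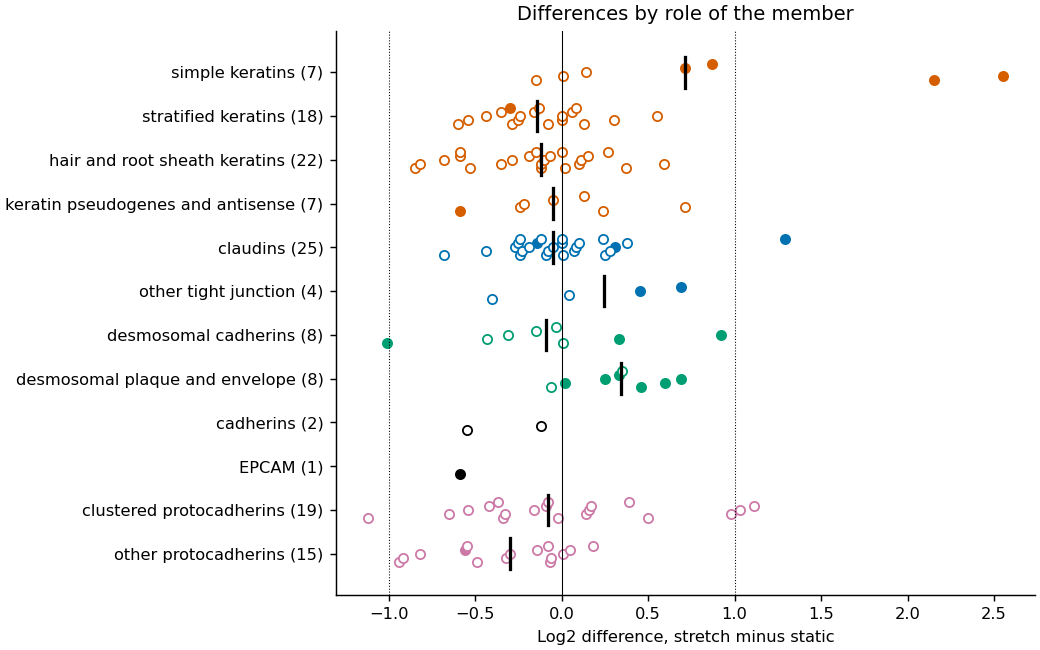
Log2 difference (stretch minus static) of each of the 136 members, 1 point per gene, grouped by role with the number of genes in brackets. Filled points have a mean signal above the background bound, black bars are medians of roles with more than 2 genes, and dotted lines mark 2-fold. The filled simple keratins lie at 0.71 or more, while the protocadherins are almost all open points.

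Protocadherins were dim, with PCDH9 the exception. PCDH9, a neuronal protocadherin, read 5.76 and 5.20 (-0.56) on its brighter probe set and 1.41 and 1.20 (-0.21) on the other. Its difference came to -0.97 after quantile normalization. Of 15 non-clustered protocadherin symbols, which include PCDH9-AS2 and PCDH9-AS3, 0 passed 1.5-fold upward and 3 downward, around a median of -0.30, beside 20.7% and 8.02% of all named genes. Of the 15, 14 were in the background range on both arrays, where dim probe sets leaned lower in the whole table. The 3 lower ones were PCDH7, PCDH19 and PCDH11Y, the last close in sequence to PCDH11X. PCDH7 (2.97 and 2.15) and PCDH19 (2.81 and 1.89) were both in the background range. PCDH17 read 3.45 and 3.15 on its brighter probe set, and PCDH1 read 2.84 and 2.76, a difference of -0.08 that became 0.02 after centring on column medians and 0.01 after loess.

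In the beta cluster, 3 genes were higher and 1 lower by about 2-fold at signals under the bound. At 1.5-fold, 3 of the 16 protein-coding genes were higher and 2 lower, beside 20.7% and 8.02% of all named genes. Those shares cover genes of every level, and 37.0% of the genes above the bound were higher. All 16 beta genes were dim, so the shares are not a comparison at like level. PCDHB2 read 2.84 and 3.95 (1.11), PCDHB5 read 2.59 and 3.62 (1.03) and PCDHB6 read 2.17 and 3.15 (0.98), the last just short of 2-fold. PCDHB9 read 2.87 and 1.75 (-1.12). Centring on reference genes left 0.77 for PCDHB2, 0.69 for PCDHB5 and 0.64 for PCDHB6, and loess left -0.97 for PCDHB9, so none of the 4 held 2-fold under every scaling. PCDHB4, between PCDHB2 and PCDHB5 in gene order, read 1.72 and 1.63, and PCDHB3 read 2.12 and 1.79. By these dim signals the higher genes were not a continuous run. PCDHB10, next to PCDHB9, read 2.23 and 1.58 (-0.65). Over the 16 beta genes the median difference was 0.06, and all 16 were in the background range in both conditions. These genes are closely related in sequence, so their probes may read each other's transcripts, which was not tested.

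Upstream sequences of 4 beta genes are shown because genes with differences of either sign share a promoter element. Each is the 250 bases before the gene start, from the same RefSeq table, and capitals mark the 10-base run GGTGGCGCTG.
PCDHB2 chr5:141094365-141094614 +: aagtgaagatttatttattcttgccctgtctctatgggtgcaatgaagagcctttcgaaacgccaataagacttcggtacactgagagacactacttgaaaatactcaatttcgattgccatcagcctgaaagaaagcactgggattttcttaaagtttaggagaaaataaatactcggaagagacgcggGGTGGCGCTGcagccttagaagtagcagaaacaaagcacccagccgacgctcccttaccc
PCDHB5 chr5:141134956-141135205 +: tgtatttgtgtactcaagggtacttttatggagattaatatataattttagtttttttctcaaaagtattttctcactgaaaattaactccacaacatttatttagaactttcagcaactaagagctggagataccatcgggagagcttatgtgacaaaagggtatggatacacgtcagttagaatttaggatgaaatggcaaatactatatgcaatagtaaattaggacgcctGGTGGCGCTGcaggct
PCDHB4 chr5:141121568-141121817 +: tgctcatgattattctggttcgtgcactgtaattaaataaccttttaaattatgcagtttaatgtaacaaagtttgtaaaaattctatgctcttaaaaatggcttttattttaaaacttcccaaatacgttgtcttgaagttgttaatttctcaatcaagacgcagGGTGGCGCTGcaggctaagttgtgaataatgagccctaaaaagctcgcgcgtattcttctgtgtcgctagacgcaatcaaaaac
PCDHB9 chr5:141186911-141187160 +: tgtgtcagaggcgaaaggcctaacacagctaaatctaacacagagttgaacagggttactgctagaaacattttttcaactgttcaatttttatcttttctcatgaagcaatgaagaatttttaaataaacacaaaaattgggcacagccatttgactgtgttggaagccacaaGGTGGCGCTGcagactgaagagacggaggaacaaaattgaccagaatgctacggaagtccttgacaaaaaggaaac
The run was the longest stretch that 11 of the 14 beta genes in the table had in common, and was picked from these sequences. It starts 60 bases before the gene start in PCDHB2, 16 in PCDHB5, 84 in PCDHB4 and 76 in PCDHB9. On either strand it occurred in 0.225% of all 35116 promoters. It was present in PCDHB2, PCDHB5, PCDHB9 and PCDHB4, whose differences had both signs, all at signals within the background range on both arrays. PCDHB1 (0.17), PCDHB8 (-0.37) and PCDHB14 (0.39) had no exact match in this window.

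Lists of other junction and filament genes were compared beside the members. At 2-fold, 0 of 21 junction partners and 1 of 14 filament genes were higher, beside 9.07% of all named genes. In either list 0 were 2-fold lower, beside 1.93%. Among 21 measured tight junction and polarity partners (31 listed), 5 passed 1.5-fold upward and 0 downward, around a median of 0.18, beside 20.7% and 8.02% of all named genes. The upward share is near that of all genes. LLGL1, a basolateral polarity protein, read 4.06 and 4.99, TJAP1 read 3.43 and 4.34, SYMPK read 6.03 and 6.88, and MARVELD2, the tricellular junction protein tricellulin, read 3.45 and 4.20. LLGL2 (0.74) was the remaining one. The static signals of LLGL1 and TJAP1 and both signals of MARVELD2 and LLGL2 lay within the background range. Among 14 filament and anchoring genes (24 listed), 3 passed 1.5-fold upward and 1 downward, shares near those of all genes as well. PLEC, plectin, which links keratin to other filaments, read 5.79 and 6.85 (1.06), and the nuclear lamins LMNA and LMNB2 read 5.08 and 5.98, and 4.88 and 5.58. The lower gene, IVL (2.54 and 1.79), was within the background range.

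In the rest of the cadherin superfamily, FAT4, a giant cadherin of planar polarity, read 3.08 static, within the background range, and 5.94 stretched. The difference was 2.86 or 7.26-fold, and FAT4 was the only gene of this list past 2-fold. CLSTN3 read 3.86 and 4.79, CLSTN1 read 6.69 and 7.56, and CDHR1 differed by -0.70. Of the 14 measured genes of this list (18 listed), 4 passed 1.5-fold upward and 1 downward, around a median of 0.11, beside 20.7% and 8.02% of all named genes.

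**Figure D5:**
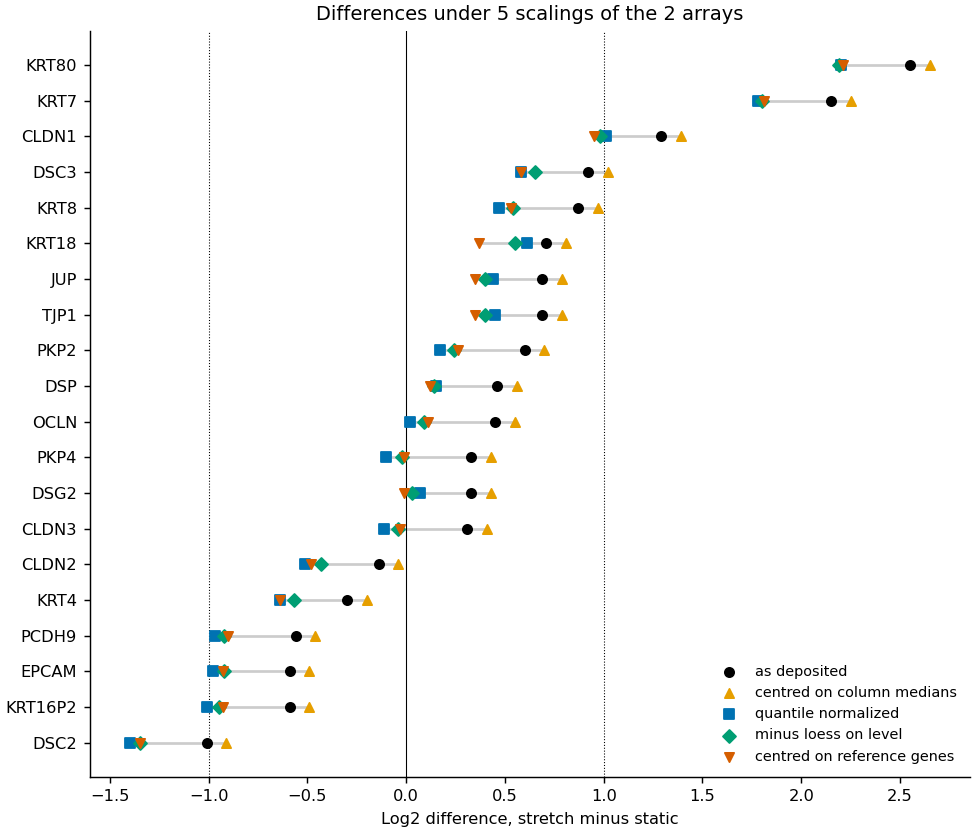
Log2 difference (stretch minus static) of 20 members with mean signal above the background bound under 5 scalings of the arrays, with grey bars spanning the lowest to the highest value. KRT80, KRT7 and CLDN1 stay at 0.95 or more and DSC2 at -0.91 or less, while DSG2, PKP4 and CLDN3 cross 0. PPL and EVPL, also above the bound, are not drawn.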

How the data were processed

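Total RNA of the static and the stretched A549 sample was column-purified, biotin-labelled and hybridised to Affymetrix arrays, per the labels' protocols. The deposited table holds log2 values of 53617 probe sets, made by the authors with RMA (background correction, quantile normalization and probe summary) per the submitters' processing notes. Its version, the chip definition and the build are not given in the sources used here. Both columns differ in their distribution (medians 2.57 static, 2.47 stretched), so how they were scaled to each other is unknown. RMA compresses low signals, so folds from dim probe sets can be understated.

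By the platform annotation 16098 probe sets have 1 symbol, 0 have several, and the others are unnamed here. A gene was read from its brightest probe set by mean of both arrays, and 3 members had more than 1. Genes counted as past the level filter had a signal of 2.52, the median of all values, on at least 1 array. No test across samples exists. Members, lists, thresholds and roles were chosen with earlier results of these data known. Values are given for members past 2-fold, up to 4 members of highest mean per role, defining members, and the 4 largest differences past the filter per other list; the remaining values were picked after they were seen. Calculations, checked on simulated data, used Python 3.11.15, numpy 2.4.6, pandas 2.3.3 and statsmodels 0.14.6 (loess span 0.3). Alternatives were other level filters, averaged probe sets and 4 other scalings.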

Additional observations from a re-analysis of the deposited data

How the results depend on the processing

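With 1 array per condition the reproducibility of every value is unknown, and weak signals limit the dim families most. The filtered list of 66 members gave 14 at 1.5-fold higher, 11 at 1.5-fold lower, 5 at 2-fold higher, 2 at 2-fold lower and a median of 0.00. Stricter level filters (upper quartile, background bound, or a mean above the bound, the last chosen after seeing the data) left 9, 3, 3 and 1, as fewer genes enter, with medians of 0.33, 0.34 and 0.39. The median became -0.34 after centring on reference genes and -0.105 after quantile normalization. Counts at 1.5-fold higher became 9 after quantile normalization, 9 after loess and 6 after centring on reference genes. Centring on reference genes also gave 20 at 1.5-fold lower, 2 at 2-fold higher and 7 at 2-fold lower. Centring on column medians gave 6 at 1.5-fold lower and 1 at 2-fold lower, and loess gave 1 at 2-fold lower. Dropping the filter or averaging probe sets kept the 4 counts within 1.5 times. The cause of the changes with scaling was not tested. Of 46 members named by rule, 8 moved by more than the 0.34 spread of unrelated genes after loess and 12 after quantile normalization. Of the 19 called at 1.5-fold, 0 reversed under any alternative, but some fell short of 1.5-fold. Still called were 15 after centring on column medians, 14 after quantile normalization, 14 after loess and 13 after centring on reference genes. The last scaling changed the sign of 10 of the 46. No paired analysis was possible because each condition has 1 array.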

Other observations

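Pseudogenes and antisense RNAs among the members held 1 signal above the bound. KRT16P2, a transcribed copy of KRT16, read 6.43 static and 5.84 stretched (-0.59), while the probe set of KRT16 itself read 3.33 and 3.20. Near-identical copies of KRT16 make the source of this signal uncertain. KRT18P55 read 3.96 and 4.20, a difference of 0.24 that became -0.10 after centring on reference genes. KRT42P (3.09 and 3.22), KRT17P5 (3.17 and 2.95) and KRT16P3 (2.04 and 2.75) stayed under the bound, as did DSG2-AS1 at 2.10 and 2.11, beside DSG2 at 7.62 and 7.95.

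The KRT18 probe set that stands for the gene was the only one of the 136 whose 10 nearest named identifiers held 0 probe sets of the gene's own chromosome. Its difference between arrays was 0.71, and that of the gene's other probe set was 0.54.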
